A study of Eucalyptus camaldulensis with 12 samples.

Results

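The comparison described here sets the Katherine population of river red gum, Eucalyptus camaldulensis, against the Mt Isa population (Mt.Isa in the labels). It was made up by population label alone, and it holds 8 of the 12 leaf RNA samples of the series, 4 of Katherine, which comes from the dry tropics, and 4 of Mt Isa, which comes from the semi-arid tropics. The remaining 4 samples belong to Petford, a population of the humid tropics, and are given only beside a result. The study grew seedlings of these 3 populations in pots in a glasshouse and sampled leaves for RNA sequencing before and after water was withheld. Every sample is a bulk of leaves: C0 and C1 hold the same 5 seedlings of a population before the treatment and at its end, when they were still watered to field capacity, and S0 and S1 hold the same 10 seedlings before the treatment and after they were kept at 30% of field capacity. Each population has therefore 4 samples but only 2 independent sets of seedlings, and the p-values below measure the spread between these samples, not between many families or sites. For the Mt Isa C1 and S0 samples the source description disagrees with the title and the sample group, and the titles were followed.

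Leaves of eucalypts are rich in terpenes, which are made in secretory cavities and form the oil of the leaf. Terpene synthases turn a prenyl diphosphate into the carbon skeleton of a monoterpene or sesquiterpene, and cytochrome P450s and glycosyltransferases can then oxidize it or attach a sugar. These families have grown by tandem duplication in Eucalyptus, and oil composition is known to differ among trees of a species. When leaves dry or warm, plants also make heat shock proteins, LEA proteins, osmolytes and defence proteins, and slow cell division and wall growth.

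Counts per sample, as deposited, summed to 1967306 in C0, 2567812 in C1, 3033656 in S0 and 5124779 in S1 for Katherine, against 3277834, 1759873, 1726793 and 2343370 in the same order for Mt Isa. Expression is given below as CPM, the count scaled to a common library size (counts per 1e6 by TMM), and a fold change is Katherine over Mt Isa on the log2 scale, with its standard error. The pair of populations was compared within each group, so that treatment and date did not enter the difference. A transcript is said to be called, or to have risen or fallen, where the adjusted p of edgeR's quasi-likelihood test was under 0.01. The leading log2 fold change is the root mean square difference of the 500 most different transcripts. Between populations of the same group it was 2.97 to 3.64 (median 3.08, 4 pairs). Between samples of the same population it was 2.65 to 6.14 (median 4.73, 12 pairs), but most of these pairs also differ in date or treatment. Between C0 and S0 of the same population, both before the treatment, it was 3.44 in Katherine and 2.65 in Mt Isa. Katherine and Mt Isa were 2.97 apart in C0 and 3.64 apart in S0. The seedling sets of Katherine thus differed about as much as the populations did, and those of Mt Isa less.

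Of 38499 tested transcripts, 309 differed between the populations, which is 0.803%. Among them, 167 were higher in Katherine (0.434% of those tested) and 142 were lower (0.369%). By the fit 153 of the 309 changed at least 4-fold, with a median of 2.04 among the higher and of -1.91 among the lower, while the median over all tested transcripts was 0.02. In 237 of the 309 the sign was the same in C0, C1, S0 and S1, 108 of 167 among the higher and 129 of 142 among the lower. Over all tested transcripts it was the same in 17.1%. The calls were chosen by a fit over these same 4 groups, which favours a consistent sign. Agreement of sign among them, and between the seedling sets below, is therefore no independent support. A group with no read in either population was scored as well, at 0.67 in C0, -0.52 in C1, -0.55 in S0 and -0.90 in S1. This scoring favours the lower calls in C1, S0 and S1, and the gap between higher and lower calls was not corrected for it. The difference was at least 2-fold in the called direction in both seedling sets for 180 transcripts, and the sets had opposite signs for 20. In 103 called transcripts more than 50% of the reads came from a single sample, and 89 of the 309 were called in every fit that left out 1 sample. Calls lay mostly on well covered transcripts, with a median of 371 reads over the 8 samples against 76 among all tested. DESeq2 called 89 transcripts, 87 of them among the 309, and a stricter minimum of 10 reads in at least 4 samples left 52 calls.

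**Figure D1:**
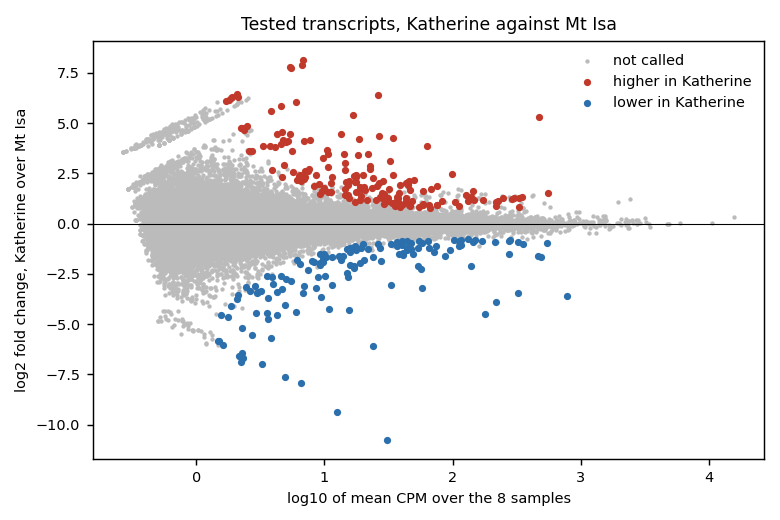
Each point is 1 of the 38499 tested transcripts, with the log10 of its mean CPM over the 8 samples on the x axis and the log2 fold change of Katherine over Mt Isa on the y axis. The 167 transcripts higher in Katherine are red and the 142 lower ones are blue, and the grey streaks above and below hold transcripts with no or few reads in a population.

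The table of counts names no genes. A gene identifier of E. grandis or a name with the prefix CUFF could be given to 110 of the 309 called transcripts through the study's supplementary tables, and 97 of them have a best match in Arabidopsis there. Most of those tables list genes that responded to water stress or carried chosen SNPs in these same samples, and a count within a list of named genes is therefore no independent evidence of its direction. Of the named transcripts tested 4.85% were called, against 0.549% of those without a name, and of the genes with an identifier, at 1 transcript a gene, 4.81%. Called transcripts were also better read than the rest, as given above, and the part of either in this gap was not tested. Names stand for the best match only, and for families of near-identical copies such as terpene synthases, P450s and small heat shock proteins the reads of neighbouring copies could not be told apart with certainty.

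Terpene synthases were the list with the highest share of calls. Of 18 members tested, 5 rose and 8 fell in Katherine relative to Mt Isa, and the median log2 fold change was -0.78. The members moved in opposite directions, often side by side on the same scaffold. DESeq2 called 2 higher and 5 lower, and the fits that left out 1 sample called 3 to 6 higher and 6 to 7 lower.

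The largest contrast lay in a cluster on scaffold 1. CUFF.1110 (scaffold 1, 17353234 to 17357495), whose best match is TPS02, an ocimene synthase in Arabidopsis, had 679 CPM in C0, 2320 in C1, 719 in S0 and 8.22 in S1 of Katherine, against 8.43, 42.7, 8.34 and 6.48 CPM in the Mt Isa samples of those groups. Before stress and in watered leaves every Katherine sample was far above its Mt Isa counterpart, and in stressed leaves the populations nearly met. Its fitted log2 fold change was 5.32 ± 0.42 (adjusted p = 2.33e-13). Petford leaves were low as well, at 3.56 to 20.7 CPM.

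Its neighbours went the other way. CUFF.1107 (scaffold 1, 17213991 to 17217408), also a TPS02 match, had 7.49, 33.4, 16.7 and 1.3 CPM in Katherine C0, C1, S0 and S1, against 277, 929, 119 and 56.3 CPM in Mt Isa. The ranges did not overlap, and the log2 fold change was -4.47 ± 0.26 (adjusted p = 3e-18). CUFF.1087 (scaffold 1, 17077866 to 17081339), a further TPS02 match, had 28.4, 92.5, 15.1 and 0.649 CPM in Katherine, against 259, 1040, 245 and 62.4 CPM in Mt Isa (log2 fold change -3.92 ± 0.24, adjusted p = 1.66e-17). Each Katherine sample was below the Mt Isa sample of its group, and the gap was widest in S1.

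The same held for the matches to TPS10, which makes acyclic monoterpenes in Arabidopsis. CUFF.1343 (scaffold 1, 17290163 to 17293925), one of the most abundant called transcripts, had 11.2, 369, 178 and 19.7 CPM in Katherine C0, C1, S0 and S1, against 1020, 3560, 924 and 153 CPM in Mt Isa. It was lower in Katherine in each group, by 3.58 ± 0.29 on the log2 scale (adjusted p = 7.79e-13), and least so in S0. CUFF.1130 (scaffold 1, 17167494 to 17169950) fell by 3.46 ± 0.25 (adjusted p = 1.04e-14), with 9.1 to 166 CPM in Katherine and 66.8 to 1420 CPM in Mt Isa. The small CUFF.1085 between them had 31 reads in Katherine and 87 in Mt Isa over the 4 samples of each (log2 fold change -2.01 ± 0.46, adjusted p = 0.00816), and it was not called when any single sample was left out.

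Read shares within the list put these shifts together. CUFF.1110 took 60.9% of the list's reads in Katherine C0, 55.6% in C1, 54.2% in S0 and 12.2% in S1, against 0.348%, 0.502%, 0.407% and 1.32% in Mt Isa. CUFF.1343 took 1.01%, 8.86%, 13.4% and 29.2% of them in Katherine, against 42.2%, 41.8%, 45.1% and 31.3% in Mt Isa. Thus a different copy led the list in each population in C0, C1 and S0. In stressed leaves CUFF.1343 took nearly equal shares of it, but the leading copy still differed. Eucgr.F03400, described below, led in Katherine S1 with 122 of 312 reads, and CUFF.1343 led in Mt Isa S1 with 378 of 1209. In Petford CUFF.1343 led with 47.8% to 53% and CUFF.1110 took 0.08% to 1.25%. The summed level of the list was 1116 CPM in C0, 4171 in C1, 1327 in S0 and 67.5 in S1 of Katherine, against 2422, 8503, 2047 and 490 CPM in Mt Isa.

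A pair of transcripts further along the scaffold was higher in Katherine. CUFF.1697 (scaffold 1, 27277059 to 27277841), which matches the cineole synthase TPS-CIN, had 45, 152, 67.5 and 1.52 CPM in Katherine C0, C1, S0 and S1, against 2.02, 2.91, 0.596 and 4.05 CPM in Mt Isa (log2 fold change 4.24 ± 0.44, adjusted p = 1.85e-09). CUFF.1698 beside it, a TPS02 match, had 45.5, 143, 50.9 and 0.433 CPM, against 2.36, 5.83, 0.596 and 8.51 CPM (3.11 ± 0.51, adjusted p = 6.44e-05). Both were higher in Katherine in C0, C1 and S0 and lower in S1, where they had 2 to 21 reads a sample. CUFF.1698 ends at 27276954, just before CUFF.1697 starts, and their levels were alike. Whether they are parts of 1 gene was not tested, and they are counted separately throughout. Without Katherine C0 or Mt Isa C0, CUFF.1698 was no longer called (adjusted p up to 0.069). On scaffold 7, CUFF.32671 (TPS-CIN) and CUFF.32674 (TPS03) rose by 2.73 ± 0.30 and 1.34 ± 0.26 (adjusted p = 6.17e-09 and 0.000797), while CUFF.32675 (TPS02) fell by 1.60 ± 0.25 (adjusted p = 1.98e-05). Eucgr.F03400, a match of TPS21, the caryophyllene synthase of Arabidopsis, fell by 1.51 ± 0.18 on scaffold 6 (adjusted p = 3.8e-08), and Eucgr.L02971 (TPS-CIN) had 0.433 to 22.3 CPM in Katherine and 3.65 to 44.7 CPM in Mt Isa (-1.82 ± 0.33, adjusted p = 0.000296, and up to 0.053 without the C0 sample of either population). CUFF.32674 lost its call without Katherine C0, Katherine S0 or Mt Isa C0 (adjusted p up to 0.044). With the samples of the same seedlings summed, which gives each seedling set 1 value, 5 higher and 6 lower members were called, without Eucgr.L02971 and CUFF.1085 (adjusted p = 0.037 and 0.1).

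**Figure D2:**
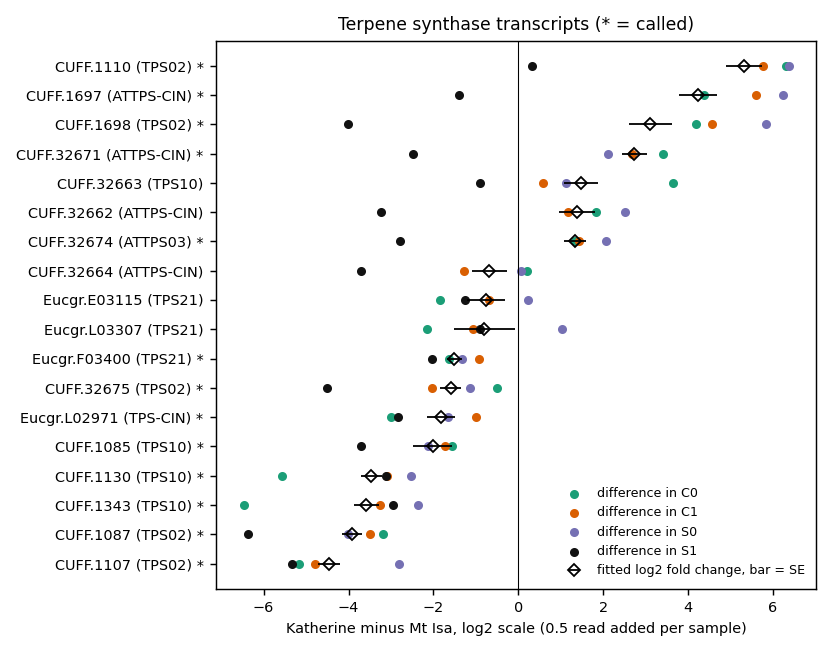
Rows are the 18 terpene synthase transcripts tested, ordered by fitted log2 fold change of Katherine over Mt Isa (diamonds, bars are standard errors), and circles are the differences within C0, C1, S0 and S1 on the log2 scale. In S1 the difference was positive for only 1 of the 18, CUFF.1110, against 7 to 10 of them in the other groups. CUFF.32663 and Eucgr.L03307 had no read in either population in S1 and were scored below 0 there.

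Cytochrome P450s, enzymes that oxidize terpenes and many other small molecules, had 3 members higher and 3 lower of 42 (14.3% called). The pair Eucgr.D01193 (scaffold 4, 21684730 to 21686496) and Eucgr.D01195 (scaffold 4, 21704020 to 21705426), both matches of CYP71B23, was read in every Katherine sample and in no Mt Isa sample. Eucgr.D01193 had 36, 60, 37 and 1 reads in Katherine C0, C1, S0 and S1, against 0 in each Mt Isa sample, and Eucgr.D01195 had 27, 50, 28 and 2, against 0. With 3 reads over the Mt Isa samples as the floor, they were at least 34.4-fold and at least 27.5-fold higher in Katherine (adjusted p = 2.57e-09 and 4.92e-08 with edgeR, 0.32 and 0.13 with DESeq2). Petford leaves held more of both, 2.26 to 70.2 CPM of Eucgr.D01193.

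Eucgr.C01776, a CYP71B11 match, had 175, 763, 263 and 4.76 CPM in Katherine C0, C1, S0 and S1, against 431, 1760, 430 and 85.5 CPM in Mt Isa (log2 fold change -1.66 ± 0.25, adjusted p = 1.32e-05). It was lower in Katherine in every group and most of all in S1. Eucgr.C00059 matches CYP716A1, of a family that oxidizes triterpenes, and had 89.9, 272, 139 and 14.5 CPM in Katherine, against 190, 355, 269 and 27.5 CPM in Mt Isa (-0.86 ± 0.17, adjusted p = 0.00153). Eucgr.D01997 (CYP706A6) rose by 0.86 ± 0.18 and Eucgr.D02439 (CYP704A2) fell by 0.85 ± 0.19 (adjusted p = 0.00235 and 0.00795). Eucgr.C00059 lost its call without Katherine C0, Katherine S1 or Mt Isa C0 (adjusted p up to 0.059), Eucgr.D01997 without the C0 or S0 sample of either population (up to 0.041), and Eucgr.D02439 without Katherine C0, C1 or S1 or Mt Isa C0 or C1 (up to 0.386). None of these 3 was called with the same seedlings summed (adjusted p = 0.156, 0.078 and 0.037). DESeq2 did call Eucgr.C00059 (adjusted p = 0.00095).

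UDP-glycosyltransferases and serine carboxypeptidase-like (SCPL) proteins are families that attach sugars and acyl groups to secondary metabolites. Their list had 5 members higher and 3 lower of 45 (17.8% called). Eucgr.A02701, a match of UGT88A1, had 76, 184, 87.9 and 9.52 CPM in Katherine C0, C1, S0 and S1, against 20.6, 67.5, 17.3 and 6.08 CPM in Mt Isa (log2 fold change 1.63 ± 0.21, adjusted p = 3.01e-07). Eucgr.A02713, a match of UGT72B1, had 6.42, 60.5, 4.48 and 4.55 CPM, against 1.01, 13.1, 0.596 and 0.81 CPM (2.30 ± 0.37, adjusted p = 3.87e-05). Both were higher in Katherine in all 4 groups. Eucgr.G01192 (SCPL11) was lower in Katherine, with 78.2, 673, 65.1 and 13.9 CPM, against 109, 1080, 151 and 28.4 CPM (-0.88 ± 0.17, adjusted p = 0.00133), and Eucgr.C00146 (SCPL13) fell by 1.03 ± 0.23 (adjusted p = 0.00522). Eucgr.A02713 lost its call without Katherine C1, Eucgr.G01192 without Katherine S0, Katherine S1 or Mt Isa S0, and Eucgr.C00146 without the C0 or S0 sample of either population (adjusted p up to 0.014, 0.015 and 0.043). With the same seedlings summed the list had 7 members higher and 0 lower, and the adjusted p was 0.23 for Eucgr.G01192 and 0.18 for Eucgr.C00146. The remaining 3 rises came from C1: Eucgr.L01608, for example, had 3, 929, 3 and 3 reads in Katherine, against 3, 96, 4 and 1 in Mt Isa (2.14 ± 0.36, adjusted p = 0.000101).

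Flavonoid and phenolic genes gave 2 rises and 1 fall among 32 (9.38% called). Both rises were matches of chalcone synthase (CHS), the entry enzyme of flavonoid synthesis. Both transcripts were most abundant in watered leaves at the end of the experiment. Eucgr.I01579 had 125, 1050, 95.6 and 44.2 CPM in Katherine C0, C1, S0 and S1, against 129, 232, 51.2 and 17.8 CPM in Mt Isa (log2 fold change 1.05 ± 0.21, adjusted p = 0.00181). Eucgr.H02828 had 26.8, 1530, 46 and 5.19 CPM, against 19.9, 330, 8.94 and 7.7 CPM (1.28 ± 0.26, adjusted p = 0.00246). The populations were close in C0 and well apart in C1, and in S1 the first was higher in Katherine and the second lower. For Eucgr.H02828 the log2 difference was as large in S0 (2.32) as in C1 (2.21), and for Eucgr.I01579 it was 0.89 and 2.18. Without the C1 sample of either population neither was called, nor Eucgr.I01579 without Katherine S1 or Eucgr.H02828 without the S0 sample of either population, and DESeq2 called neither (adjusted p = 0.09 and 1). In the voom fit with correlated seedlings Eucgr.I01579 was not called (adjusted p = 0.014). That fit put the correlation between samples of the same seedlings at -0.114, so here and below it makes no allowance for shared seedlings. Eucgr.H02579, a laccase (LAC14) of a family that oxidizes phenolics and also stands in the list of secondary wall and xylem, had 5.89, 117, 19.9 and 0.216 CPM in Katherine, against 13.2, 340, 30.4 and 0.81 CPM (-1.21 ± 0.23, adjusted p = 0.000721). It was the only member called of the 24 in the wall and xylem list (4.17%, against the 4.81% of all genes with an identifier). This laccase lost its call without Katherine C1, Mt Isa C0 or Mt Isa C1 (adjusted p up to 0.29). Nor was it called with the same seedlings summed (adjusted p = 0.034). Among the most abundant calls, Eucgr.E00338, an NmrA-like protein, had 174, 558, 229 and 34 CPM in Katherine, against 465, 1670, 390 and 195 CPM in Mt Isa (-1.60 ± 0.19, adjusted p = 6.49e-08).

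Heat shock proteins and chaperones, which keep other proteins folded, rose in 13 of 57 members and fell in none. At an unadjusted p under 0.05 the list held 36 members higher and 0 lower, and DESeq2 called 2 higher and 0 lower. The median log2 fold change was 0.66, and 24, 42, 43 and 50 of the 57 were above 0 in C0, C1, S0 and S1. Members with no read in either population are in these counts. Eucgr.B02741, for example, had no read in C0, C1 or S0 and was scored above 0 in C0 and below 0 in C1 and S0. Summed over the list the level was 6230 CPM in C0, 11273 in C1, 8822 in S0 and 40240 in S1 of Katherine, against 8606, 8519, 7950 and 23279 CPM in Mt Isa. Katherine was thus below Mt Isa in C0 and above it in the other 3 groups.

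CUFF.42704, a small heat shock protein of the HSP20 type, had 6.42, 3.38, 16.3 and 407 CPM in Katherine C0, C1, S0 and S1, against 3.37, 1.94, 2.98 and 105 CPM in Mt Isa (log2 fold change 1.71 ± 0.25, adjusted p = 9.99e-06). Eucgr.G00061 (HSP22.0) had 0.535, 6.75, 7.32 and 225 CPM, against 0.337, 1.46, 0 and 66.8 CPM (1.90 ± 0.30, adjusted p = 3.06e-05). CUFF.42704 was higher in Katherine in all 4 groups, and Eucgr.G00061 in C1, S0 and S1. In C0 Eucgr.G00061 had 1 read in each population, which shows no difference. The bulk of the reads of both lay in S1. Without Katherine S1 neither was called, and without Mt Isa S1 CUFF.42704 was not (adjusted p up to 0.069). The other called members were 9 further ones, most of them matches of small heat shock proteins, the heat shock factor HSFA2 (Eucgr.C03449) and a chloroplast Hsc70 (Eucgr.G00235). HSFA2 was counted almost only in S1, with 328 reads in Katherine and 14 in Mt Isa (3.27 ± 0.58, adjusted p = 0.000225). Differences of the 13 within S1 were 1.08 to 3.60 on the log2 scale. Of the 13, 0 were still called without Katherine S1 (1 other member was), 5 without Mt Isa S1 (7 in the list) and 8 without the C1 sample of either population. In C1 the median difference of the 13 was 2.14.

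**Figure D3:**
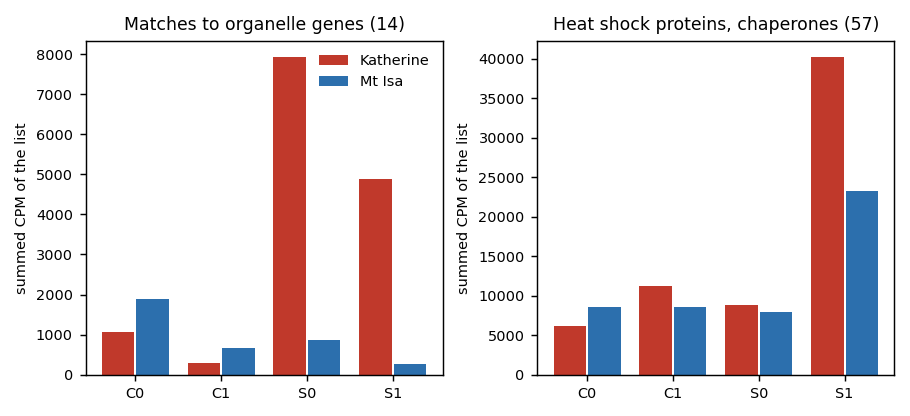
Bars are summed CPM of 14 transcripts matching organelle genes (left panel) and 57 heat shock proteins and chaperones (right panel) in each sample, Katherine in red and Mt Isa in blue, by group. Organelle matches stood at 7936 and 4887 CPM in Katherine S0 and S1 and at most 1889 CPM in the other samples, and the heat shock list was highest in the S1 samples of both populations.

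Other lists of the drought response showed no call with edgeR. LEA proteins and dehydrins (8 members), abscisic acid signalling (10), galactinol, raffinose and trehalose synthesis (14), antioxidant enzymes and ferritin (11) and aquaporins (14) had 2, 1, 2, 1 and 4 members at an unadjusted p under 0.05 in either direction, and DESeq2 called 0 of them. LEA4-5 (Eucgr.K01836) had 1380 CPM in Katherine S1 and 759 CPM in Mt Isa S1, with at most 6.07 CPM elsewhere (log2 fold change 0.24 ± 0.29, adjusted p = 0.94). RD29B (Eucgr.A02790), a classical abscisic acid marker, had 10.2, 9.46, 22.8 and 1720 CPM in Katherine C0, C1, S0 and S1, against 37.8, 18.4, 24.4 and 1090 CPM in Mt Isa (-0.44 ± 0.24, adjusted p = 0.62). Galactinol synthase (Eucgr.K03563, GolS1) had 2310, 351, 3490 and 2870 CPM, against 2450, 17.5, 2150 and 1910 CPM, with a wide gap only in C1 (1.09 ± 0.29, adjusted p = 0.041). Catalase (Eucgr.F01776, CAT2) and the tonoplast aquaporin GAMMA-TIP (Eucgr.K02438) differed by -0.22 ± 0.16 and 0.10 ± 0.16.

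In the list of disease resistance and receptor kinases 2 of 43 rose and 0 fell (4.65% called, against the 4.81% of all genes with an identifier), with 4 higher and 4 lower at an unadjusted p under 0.05 and 0 called by DESeq2. Eucgr.F01059 (scaffold 6, 13782484 to 13786029), an NB-ARC protein of the kind that senses pathogens, had 5, 5, 70 and 449 reads in Katherine C0, C1, S0 and S1, against 1, 3, 1 and 0 in Mt Isa, and 0 to 13 in Petford. Both high values came from the same 10 Katherine seedlings. The log2 fold change was 5.41 ± 0.57 (adjusted p = 2.6e-09), and it lay between 3.10 and 6.85 when 1 sample was left out, with an adjusted p of 0.027 without Katherine S1. Eucgr.J02919, a leucine-rich repeat receptor kinase, had 19.8, 51.3, 4.88 and 0 CPM in Katherine, against 2.02, 4.37, 2.38 and 0.405 CPM (2.80 ± 0.44, adjusted p = 3.16e-05). Without Katherine C0, Katherine C1 or Mt Isa C0 it was not called (adjusted p up to 0.11). With voom and correlated seedlings 0 members of the list were called (adjusted p = 0.017 for Eucgr.F01059 and 0.013 for Eucgr.J02919).

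Of 20 chitinases and pathogenesis-related proteins, 1 rose and 3 fell (20% called). The basic chitinase Eucgr.I02240 and the osmotin-like Eucgr.H03865 (OSM34), both antifungal proteins, were found almost only in stressed leaves, with 48 and 113 reads in Katherine S1, against 198 and 250 reads in Mt Isa S1 (log2 fold changes -3.03 ± 0.49 and -2.04 ± 0.41, adjusted p = 5.57e-05 and 0.00208). These calls rest on the S1 sample of each population, and neither was called without Katherine S1 or Mt Isa S1 (adjusted p up to 0.74 and 1). Eucgr.F02733 fell by 1.65 ± 0.35 (adjusted p = 0.00356), and was not called without Katherine S0 or S1 or Mt Isa C0, S0 or S1 (up to 0.151) nor with the same seedlings summed (0.012). Eucgr.B00944 rose, with 51.4, 362, 41.5 and 0.433 CPM in Katherine, against 22.9, 162, 17.3 and 0.405 CPM in Mt Isa (1.13 ± 0.20, adjusted p = 0.000315), and it was called in all 8 fits that left out 1 sample. Glutathione S-transferases (5 members) had 0 calls, with 3 at an unadjusted p under 0.05 and 0 by DESeq2. Eucgr.F01428 (GSTU24) differed by -0.45 ± 0.17 (adjusted p = 0.28).

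In the list of cell division, histones and tubulins, 3 of 28 rose and 0 fell (10.7% called). At an unadjusted p under 0.05 the list held 16 higher and 0 lower, and DESeq2 called 0. Eucgr.H04911 and Eucgr.J00806 match histone H3, which packs newly made DNA. Eucgr.H04911 had 43.4, 65.5, 10.6 and 0 CPM in Katherine C0, C1, S0 and S1, against 4.72, 21.8, 5.36 and 0.81 CPM in Mt Isa (log2 fold change 1.82 ± 0.33, adjusted p = 0.000397). Eucgr.J00806 had 33.7, 109, 21.2 and 0.649 CPM, against 9.1, 50.5, 4.77 and 1.62 CPM (1.38 ± 0.26, adjusted p = 0.000752). They were higher in Katherine in C0, C1 and S0 and nearly unread in S1. Neither was called without the C0 sample of either population, nor Eucgr.J00806 without Katherine S0 (adjusted p up to 0.24 and 0.076). With the same seedlings summed 1 member of the list was called, Eucgr.J00806, and with voom and correlated seedlings 0 (adjusted p = 0.027 for Eucgr.H04911 and 0.019 for Eucgr.J00806). The list had 25, 21, 21 and 8 of 28 members above 0 in the 4 groups. Members with no read in either population are in these counts, above 0 in C0 and below 0 in the other groups. The median difference of the list in S1 was -0.90, the value given to such members, so the count in S1 does not show lower expression in Katherine.

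Expansins, xyloglucan, pectin and cellulose genes, which build and loosen the wall, had 1 higher and 1 lower of 47 (4.26%, against the 4.81% of all genes with an identifier). The beta-expansin Eucgr.A01806 (EXPB3), which loosens walls, had 56.7, 78.7, 21.6 and 0.216 CPM in Katherine C0, C1, S0 and S1, against 15.2, 30.6, 14.9 and 0 CPM in Mt Isa (log2 fold change 1.30 ± 0.25, adjusted p = 0.000682, up to 0.13 without Katherine C0, Katherine C1 or Mt Isa C0, and 0.072 with the same seedlings summed). The cellulose synthase-like Eucgr.E03847 (CSLB06) had 3.21, 0.675, 2.03 and 5.84 CPM, against 16.5, 12.6, 20.3 and 19 CPM (log2 fold change -2.61 ± 0.35, adjusted p = 1.31e-06), with no overlap between the populations. Among 25 epidermis, cuticle and lipid transfer genes 1 rose and 0 fell (4%), with 7 higher and 2 lower at an unadjusted p under 0.05 and 0 by DESeq2. It was Eucgr.A01963 (PDF1, protodermal factor), an epidermis gene with 1, 607, 0 and 0 reads in Katherine, against 1, 15, 1 and 0 in Mt Isa (4.34 ± 0.49, adjusted p = 1.57e-08). This call is the C1 pair alone: without the Katherine or the Mt Isa C1 sample the log2 fold change was -0.64 or -0.62.

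Photosynthesis, ribosomal and transcription factor genes gave 0 calls with edgeR and with DESeq2. Photosystem, light-harvesting and Rubisco genes (24), cytosolic ribosomal proteins (22) and transcription factors (38) had 1, 2 and 8 members at an unadjusted p under 0.05. The small subunit of Rubisco (Eucgr.J01502, RBCS1A) had 28200, 6630, 33100 and 2780 CPM in Katherine C0, C1, S0 and S1, against 24800, 7950, 19300 and 1690 CPM in Mt Isa (log2 fold change 0.31 ± 0.16, adjusted p = 0.58). The ribosomal protein L7A (Eucgr.B00159) and the homeobox gene KNAT4 (Eucgr.C02727) differed by -0.10 ± 0.17 and 0.12 ± 0.16. Markers of leaf mesophyll were thus abundant in all 8 samples, with a summed level of 17863 to 108923 CPM. The other marker lists ran from 5294 to 7988 CPM in Katherine and 5518 to 8596 CPM in Mt Isa for epidermis, from 1138 to 5720 CPM and 1137 to 7395 CPM for secondary wall and xylem, and from 1245 to 5072 CPM and 1158 to 4178 CPM for dividing cells. Their part in the results above was not tested. In bulk leaf RNA, fewer cells of a type and less RNA per cell cannot be told apart.

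**Figure D4:**
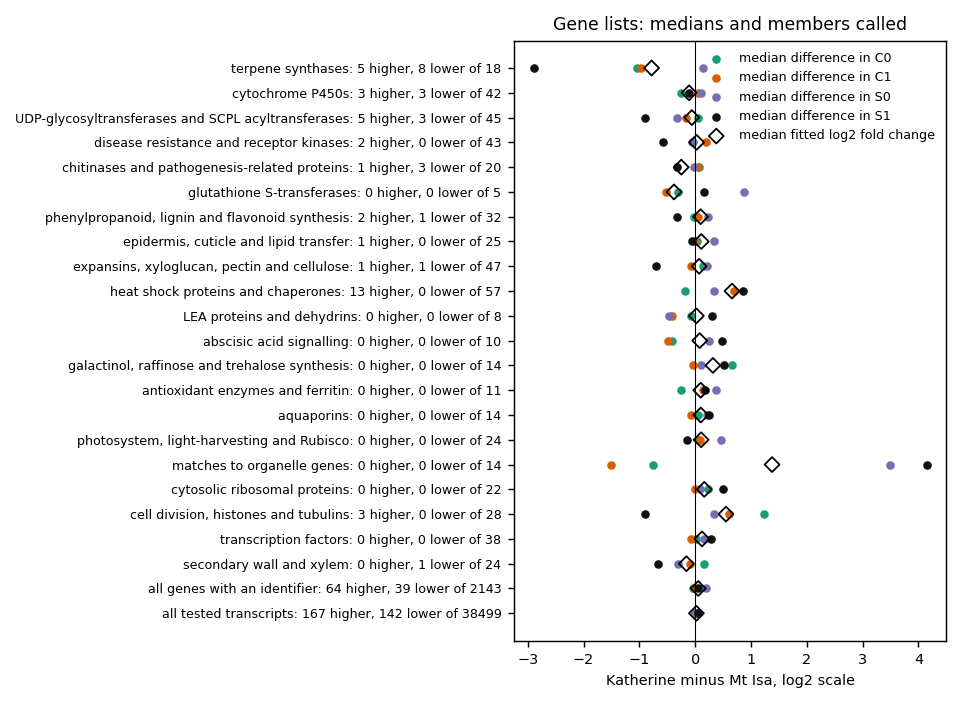
Rows are the 21 gene lists, all genes with an identifier and all tested transcripts; diamonds are the median fitted log2 fold changes of Katherine over Mt Isa, circles are the median differences within C0, C1, S0 and S1, and the labels give the members called higher or lower of those tested. Terpene synthases had the largest share of members called, and matches to organelle genes had the widest spread of medians between groups. In S1 the medians of the cell division and the UDP-glycosyltransferase lists were -0.90, the value given where neither population has a read.

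Many of the clearest differences belong to transcripts without a name. A transcript on scaffold 9 (38611553 to 38613647) had 57.8, 36.5, 61 and 52.6 CPM in Katherine C0, C1, S0 and S1, against 0.674, 0.971, 0 and 0.405 CPM in Mt Isa and at most 5.66 CPM in Petford (log2 fold change 6.42 ± 0.36, adjusted p = 1.66e-18). It was high in every Katherine sample and near 0 in every Mt Isa sample. A transcript on scaffold 4 (12996863 to 12998151) had 156, 146, 130 and 237 CPM in Katherine, against 15.2, 21.4, 35.7 and 52.3 CPM (2.47 ± 0.20, adjusted p = 3.25e-13). On the same scaffold, the transcript at 32992875 to 32993812 was lower in Katherine, with 1.61, 24.7, 4.88 and 13.9 CPM, against 36.4, 243, 25 and 114 CPM (-3.22 ± 0.22, adjusted p = 2.48e-15), and so was the one at 34624989 to 34625700, with 15.5, 0.338, 12.6 and 0.433 CPM, against 105, 2.43, 122 and 4.86 CPM (-3.05 ± 0.26, adjusted p = 4.03e-12). DESeq2 called each of these 4 as well. A transcript on scaffold 9 (30080374 to 30081170) had 6 reads in Katherine and 440 in Mt Isa (-6.10 ± 0.46, adjusted p = 8.99e-14). It was 60.7 and 111 CPM in Mt Isa C0 and C1, 19.1 in S0 and 0 in S1, and DESeq2 did not call it.

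Among named transcripts outside the lists, Eucgr.G02595 and Eucgr.G02594, neighbours on scaffold 7 that match the same Arabidopsis protein of unknown function, were both higher in Katherine. Eucgr.G02595 (scaffold 7, 44338497 to 44340163) had 94.2, 283, 84.6 and 12.6 CPM in Katherine C0, C1, S0 and S1, against 0.337, 2.43, 23.8 and 4.46 CPM in Mt Isa (log2 fold change 3.85 ± 0.41, adjusted p = 3.86e-09). The gap was far wider in the C seedlings than in the S seedlings, since the Mt Isa S0 sample read much more than the Mt Isa C0 sample. Eucgr.G02594 had 14.5, 49, 12.6 and 1.3 CPM, against 0, 0.971, 6.55 and 0 CPM (3.46 ± 0.51, adjusted p = 8.07e-06, and 0.019 with voom and correlated seedlings). Eucgr.G01327, a plant basic secretory protein, had 2.14, 2.03, 11.8 and 148 CPM in Katherine, against 0, 1.46, 2.38 and 15 CPM (2.85 ± 0.36, adjusted p = 1.8e-07, and up to 0.25 without the S1 sample of either population). Eucgr.A01792, a cell wall protein, had 6.42, 12.5, 3.66 and 0.866 CPM, against 13.2, 56.3, 11.9 and 1.62 CPM (-1.68 ± 0.32, adjusted p = 0.000743, and up to 0.27 without the C1 sample of either population). Of the most abundant calls, Eucgr.D01286, of unknown function, had 423, 171, 922 and 203 CPM in Katherine, against 231, 57.3, 448 and 195 CPM (0.84 ± 0.18, adjusted p = 0.00485), and of the fits that left out 1 sample only those without an S1 sample called it, nor was it called with the same seedlings summed (adjusted p = 0.238). A transcript without a name on scaffold 2 (47559928 to 47561359) had 259, 705, 293 and 176 CPM, against 519, 1620, 517 and 289 CPM (-0.98 ± 0.16, adjusted p = 7.87e-05, and 0.03 with the same seedlings summed).

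**Figure D5:**
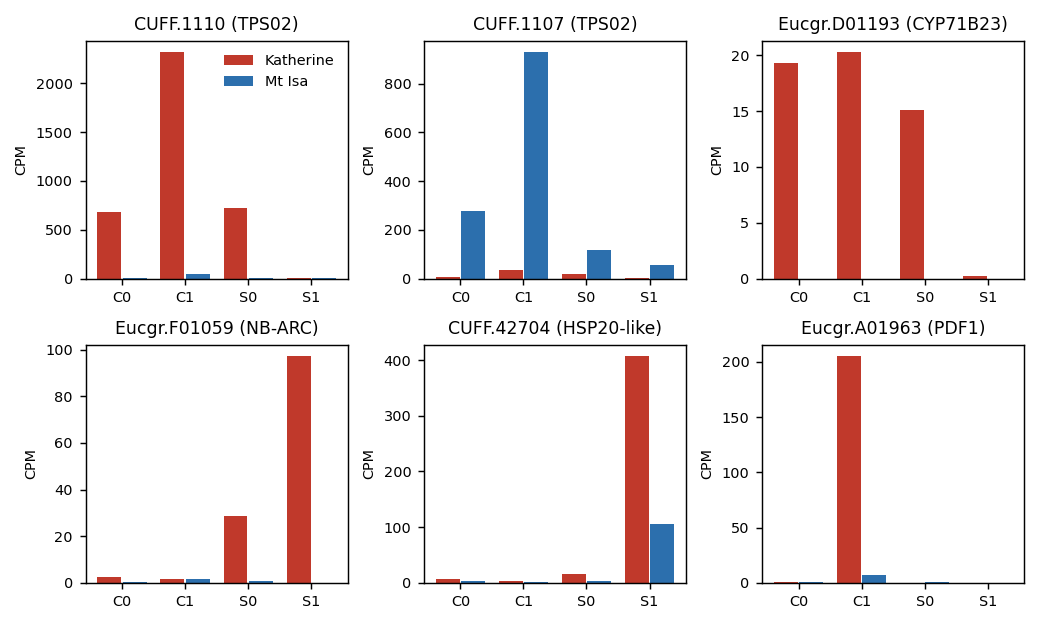
Bars give the CPM of 6 named transcripts in each sample, Katherine in red and Mt Isa in blue, by group on the x axis. The 2 terpene synthases differ in opposite directions, Eucgr.D01193 has no read in Mt Isa, Eucgr.F01059 is high only in the Katherine S seedlings, CUFF.42704 is high in S1 of both populations, and Eucgr.A01963 stands out only in C1.

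Calls also lay side by side on the genome. Runs of at least 3 called transcripts of the same direction, each starting within 50000 bases of the last, numbered 6 and held 22 of the 309 calls (7.12%). The run with most members lay on scaffold 1 (1045694 to 1060120), where 6 of 7 tested transcripts, some of them overlapping, were higher in Katherine, with log2 fold changes of 2.41 to 4.45 and 1545 reads in Katherine, 107 in Mt Isa and 273 in Petford. Its member with the smallest p (1057879 to 1060120) had 75, 99, 97 and 132 reads in Katherine C0, C1, S0 and S1, against 6, 3, 1 and 7 in Mt Isa (log2 fold change 4.19 ± 0.32, adjusted p = 8.32e-14). On scaffold 5 (67317043 to 67347469), 4 of 5 transcripts, Eucgr.E03847 among them, were lower in Katherine, with log2 fold changes of -2.61 to -1.88 and 266 reads in Katherine, 791 in Mt Isa and 445 in Petford. Also on scaffold 5, the 3 transcripts from 14300204 to 14306766 had 65 reads in Katherine and 441 in Mt Isa, and the transcripts at 14357903 and 14359787 nearby had 0 and 1 reads in Katherine, against 109 and 69 in Mt Isa. The remaining runs were 3 transcripts on scaffold 9 (38508758 to 38533760), which were higher in Katherine, the terpene synthase pair on scaffold 1 with a transcript beside it, and 3 transcripts around Eucgr.E00338 on scaffold 5 (3188792 to 3226537), which were lower. On scaffold 9 the members starting at 38508758 and 38509384 overlap, so only 2 of the 3 are separate. On scaffold 5 the members starting at 3217351 and 3222984 both carry the identifier Eucgr.E00338. The terpene synthase pair may likewise be parts of a single gene, which was not tested. How many runs would arise by chance was not tested.

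Some transcripts had no read at all in a population. Of those tested, 221 had no read in Mt Isa, 10 of them called, and 54 had no read in Katherine, 12 of them called. Over all tested transcripts 0.803% were called. Katherine was sequenced deeper in C1, S0 and S1 (5124779 against 2343370 counts in S1) and less deeply in C0. Each of these transcripts reached the minimum of 10 reads through the other population alone, so the 221 and the 54 cannot be compared directly. Most were thinly read, with a median of 16 reads in the other population in both cases, so that absence could not be told from low expression at this depth. The most read of them were 2 transcripts on scaffold 3. The one at 7872979 to 7873599 had 0 reads in the 4 Katherine samples, against 0, 0, 138 and 400 in Mt Isa C0, C1, S0 and S1 (adjusted p = 1.66e-18), and was at least 233-fold lower in Katherine with 3 reads over the Katherine samples as the floor. The one at 7856992 to 7857377 had 0 reads, against 0, 0, 75 and 136 (adjusted p = 3.55e-13, at least 91.3-fold lower). Both were read only in the 10 Mt Isa seedlings of S0 and S1, not in the 5 seedlings of C0 and C1 nor in any Petford sample, and DESeq2 called neither. The transcript on scaffold 5 at 14357903 to 14359735 was read in both Mt Isa seedling sets, with 28, 44, 34 and 3 reads, against 0 in Katherine (adjusted p = 2.06e-09, at least 47.2-fold lower).

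In the other direction, the most read were a transcript on scaffold 5 (19407560 to 19408171), with 0, 158, 0 and 0 reads in Katherine C0, C1, S0 and S1, against 0 in Mt Isa (adjusted p = 1.87e-06, at least 40.6-fold higher), Eucgr.D01193, described above, and a transcript on scaffold 7 (28465681 to 28466018), with 13, 102, 6 and 0 reads, against 0 (adjusted p = 3.48e-07, at least 31.1-fold higher). The transcript on scaffold 5 was read in a single Katherine sample, and in Petford only in C1, with 40 reads. Without Katherine C1 it had no read left to test, and without Mt Isa C1 it was not called. The transcript on scaffold 7 was not called without Katherine C1 (adjusted p = 0.053). In the voom fit with correlated seedlings neither was called (adjusted p = 0.159 and 0.031), nor was the transcript at 7856992 on scaffold 3 (0.0185). Of the 309 calls, 11 had at most 3 reads in the C seedlings of both populations together and 8 had at most 3 in the S seedlings.

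Whether the population difference depended on the seedlings, the stress or the date was tested within the same 8 samples. In the S seedlings (S0, S1) against the C seedlings (C0, C1), 204 transcripts differed in their population difference, which is 0.53% of those tested. Of these, 152 had a more positive Katherine over Mt Isa difference in the S seedlings and 52 a more negative one. Neither seedling set is replicated within a population. The spread in this test comes from C0 and C1, and from S0 and S1, which are repeat samples of the same seedlings. It therefore leaves out the spread between bulks. Of the 14 transcripts that match organelle genes, 13 were among the 152. Eucgr.L01887 (ATCG00800, a chloroplast gene match) had 176, 46.3, 1490 and 964 CPM in Katherine C0, C1, S0 and S1, against 333, 106, 129 and 51.8 CPM in Mt Isa and 169, 79.2, 2850 and 953 CPM in Petford. CUFF.24788, which stands in the list of organelle matches with AT2G07706, an unknown protein, as its best match, had 228, 45.6, 1860 and 1070 CPM in Katherine. In Mt Isa it had 449, 149, 263 and 57.5 CPM. These were higher in Katherine in S0 and S1 and lower in C0 and C1, and both were high in the S seedlings of Petford too. CUFF.424, CUFF.7576 and CUFF.15527, which have no Arabidopsis match, followed the same pattern. The abundant transcripts at 19771747 on scaffold 11 (571, 156, 1720 and 874 CPM in Katherine, against 569, 145, 297 and 67.2 CPM in Mt Isa) and at 46720809 on scaffold 2 were among the 309 calls. They were higher in Katherine in S0 and S1 and close between the populations in C0 and C1, and neither was called without an S0 or S1 sample of either population or with the same seedlings summed (adjusted p = 0.296 and 0.306). The part of organelle RNA in the 204 calls was not tested.

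In S1 against the other 3 groups, 131 transcripts differed in their population difference (0.34%), 73 more positive and 58 more negative, with 12 of the 14 organelle matches among the 73, and DESeq2 called 10 in all. Terpene synthases supplied 4 of the 131, CUFF.1087, CUFF.1110, CUFF.1697 and CUFF.1698, all with a more negative difference in S1. For CUFF.1110 the change of the difference in S1 against C0, C1 and S0 was -5.81 on the log2 scale (adjusted p = 1.1e-18). Of the 57 heat shock proteins and chaperones, 3 differed in this test, and for CUFF.42704 and Eucgr.G00061 the excess of Katherine in S1 was not shown to differ from that in the other groups (adjusted p = 1 for both). S1 holds 1 sample of each population, so this test takes its spread from the other groups.

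Between dates, after (C1, S1) against before (C0, S0), 9 transcripts differed (0.0234%), 1 with DESeq2. BAG6 (Eucgr.D02334), a co-chaperone of the heat response, had 1.07, 47.6, 3.25 and 704 CPM in Katherine C0, C1, S0 and S1, against 11.1, 8.25, 12.5 and 295 CPM in Mt Isa. Katherine was lower before the treatment and higher at its end, in both seedling sets, and the change of the difference was 4.09 on the log2 scale (adjusted p = 2.6e-10). The flavonoid glucosyltransferase UGT78D2 (Eucgr.C01021) had 3.75, 410, 0.814 and 0.216 CPM, against 8.77, 55.3, 2.38 and 0 CPM, so that the reversal rested on C1 (4.13, adjusted p = 8.2e-07). The lipoxygenase LOX2 (Eucgr.J00819), of jasmonate synthesis, had 21.4, 6.42, 100 and 3.46 CPM, against 47.9, 23.8, 14.9 and 12.2 CPM, with Katherine above Mt Isa in S0 only (-2.63, adjusted p = 0.0004). CUFF.21033 had 207, 129, 218 and 1.73 CPM, against 99.5, 141, 56 and 10.1 CPM (-2.39, adjusted p = 4.3e-05).

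Before the treatment alone, with Katherine C0 and S0 against Mt Isa C0 and S0, 1 of 29070 transcripts was called (0.00344%), 1582 had an unadjusted p under 0.05, and DESeq2 called 20. The transcript called was CUFF.1110, with a log2 fold change of 6.36 (adjusted p = 0.0025). The difference in this terpene synthase was therefore present in both seedling sets before water was withheld. The values of CUFF.1107 and CUFF.1087 in the same samples were -3.89 and -3.59 (adjusted p = 0.27 and 0.083). The fit before the treatment held 1 sample of each population in each seedling set, with the set as block. It therefore had little power. Its count of calls cannot be compared with that over all groups, and does not show that the populations hardly differed before the treatment.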

How the data were processed

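Leaf RNA of bulked seedlings was sequenced in 65-base single-end reads. The authors mapped reads to the draft E. grandis genome with TopHat and Bowtie (maximum intron 5000 bases), predicted transcripts with Cufflinks on pooled reads, and used bedtools to count the reads of each transcript. These deposited counts carry no normalization. For neither the tools nor the genome is a version or release given in the sources used here. Of 43425 transcripts in the table, 245 identical ones were used once and 1633 sharing a start were dropped. Transcripts with at least 10 reads over the 8 samples entered the quasi-likelihood test of edgeR 4.0.16 after TMM scaling in R 4.3.3, 2-sided, with group (C0, C1, S0, S1) as block and Benjamini-Hochberg adjustment over all tested transcripts. Because depth ranged from 1726793 to 5124779 counts, changes of thinly read transcripts were measured less precisely. Standard errors were derived from each fold change and its F statistic, and can be too small where a population has few reads. Interactions of population with S1, date and seedling set were fitted likewise. Alternatives were RLE scaling, DESeq2 1.42.0, limma 3.58.1 (voom with correlated seedlings), other minimums of reads, no block, all 12 samples, summed seedlings and leaving out each sample. The correlation used by voom was estimated at -0.114, below 0, so this fit is no check on the dependence of samples from the same seedlings. Folds against no read use a floor of 3 reads over the population and cover counting error only. The scripts were tested on simulated data.

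Gene identifiers came from the study's supplementary tables (2377 transcripts, 2213 genes), and 21 lists were built from words in their definitions, with 1 transcript a gene. The text names, with a match: the 8 largest changes each way with the same sign in all 4 groups and at least 40 reads; up to 2 called members each way of each list, or its most read member; and, with or without a match, the 4 most abundant calls each way, the 3 most read transcripts each way with no read in the other population, the 5 smallest p of each interaction, and 3 without a match each way. Further members of a list, of a run and of organelle matches were chosen after their values were seen. The comparison and the lists were chosen with earlier results of these data known. No genome sequence was used, and exon structure was not analysed here.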

Additional observations from a re-analysis of the deposited data

Results flagged for a closer look

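Several transcripts had a difference in 1 of the 4 groups that lay far from that in the others, by Dixon's test on the log2 difference of Katherine minus Mt Isa, which marks about 1 in 20 groups of 4 values by chance. The differences in S1 were 0.32 for CUFF.1110, -5.43 for Eucgr.C00146 (0 and 11 reads), -0.17 for Eucgr.B00944 and -4.01 for CUFF.1698 (2 and 21 reads), and that in S0 was 2.73 for Eucgr.J00819.

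The population difference changed between groups, by the interaction test of edgeR, in the following. In S1 against the other groups the change was -2.98 for CUFF.1087, -5.81 for CUFF.1110, -8.89 for CUFF.1698, -6.82 for CUFF.1697, -3.13 for Eucgr.C01776, -3.50 for CUFF.21033, -2.96 for Eucgr.G02595 and -2.31 for Eucgr.H02828. It was 4.34 for CUFF.424, 4.29 for CUFF.7576, 4.21 for CUFF.15527, 3.90 for Eucgr.L01887, 4.25 for CUFF.24788, 4.43 for CUFF.37814, 3.89 for CUFF.42998, 2.80 for the transcript at 19771747 on scaffold 11 and 2.05 for that at 46720809 on scaffold 2.

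In the S against the C seedlings it was 5.37, 5.04, 5.19, 4.92, 4.82, 5.13, 4.83, 3.06 and 2.38 for the last 9 in the same order. It was 1.84 for CUFF.1343, -3.09 for CUFF.1698, 1.84 for Eucgr.A02790, 2.50 for Eucgr.J00819, 6.54 for Eucgr.F01059, -4.74 for Eucgr.G02594, -5.37 for Eucgr.G02595, 13.71 for the transcript at 47159233 on scaffold 7 and 5.44 for that at 30080374 on scaffold 9. The transcript at 47159233 had 1, 2, 65 and 1 reads in Katherine C0, C1, S0 and S1, against 47, 109, 0 and 0 in Mt Isa.

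After against before, the change was -2.63 for Eucgr.J00819, 1.91 for Eucgr.K03563, 4.13 for Eucgr.C01021, -2.39 for CUFF.21033, 4.09 for Eucgr.D02334 and -5.83 for the transcript at 47159233 on scaffold 7.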

How the results depend on the processing

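Of 309 calls between the populations, RLE scaling gave 313 and keeping transcripts that share a start gave 327. DESeq2 gave 89, no minimum of reads 564, at least 10 reads in 4 samples 52, all 12 samples 148, summed seedlings 200, voom with correlated seedlings 184 and an adjusted p under 0.05 gave 578. Leaving out 1 sample gave 191 (without Mt Isa C0) to 390 (without Mt Isa C1). Without the group as replicate block 0 transcripts were called (1199 at an unadjusted p under 0.05), since the spread between groups then enters the error. The higher share of calls was 54% with the 167 and 142 above, 42.7% with DESeq2 and 64% with summed seedlings. DESeq2 called 10 in S1 against the other groups (131 above), 1 after against before (9) and 74 between seedling sets (204). Before the treatment 1 call became 20 with DESeq2, 204 with no minimum and 8 without the seedling set as block. The causes were not tested. The direction of PDF1 (Eucgr.A01963) reversed without Katherine C1 (-0.64) and without Mt Isa C1 (-0.62); leaving out 1 sample gave -0.64 to 4.56. No other named call reversed in these alternatives; of 52 named calls, 20 were also called by DESeq2 and 16 of 38 tested at the stricter minimum. With 2 seedling sets a population, differences between bulks and between populations cannot be told apart.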
